A study of Arabidopsis thaliana with 39 samples.

Results

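The genes described here are the 9 that encode replicative DNA polymerase subunits, the sliding clamp and the replicative ligase of Arabidopsis thaliana. They were chosen by locus identifier and not by a cut on a measured value: POL2A (AT1G08260), POL2B (AT2G27120), DPB2 (AT5G22110), ICU2 (AT5G67100), POLD1 (AT5G63960), POLD2 (AT2G42120), PCNA1 (AT1G07370), PCNA2 (AT2G29570) and LIG1 (AT1G08130). Earlier results of these data were known when the choice was made. All 9 were found in each of the 4 deposited tables, among 33609 gene identifiers listed in at least 1 of them. The question was whether mutation of POL2A was accompanied by altered transcript levels of its partners and of its paralog. Polyadenylated RNA was sequenced in 39 libraries that form 13 groups of 3. Seedling set 1 held wild-type Col0, the fld mutant and the ld mutant. Seedling set 2 compared Col0 with ld, with pol2a and with the double mutant ld pol2a. Seedling set 3 had Col0 and ld alone. The remaining table held dissected shoot apices, 30 pooled per sample, for the same genotypes as seedling set 2. Seedlings were 7 days old and grew on half-strength salt medium with 16 h of light per day. Seedling RNA carried a spike-in and apex RNA did not. The library names write pol2a as abo and ld pol2a as ldabo. Beyond that, the labels do not state which alleles of fld, ld and pol2a were grown, nor the time of day at harvest.

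DNA polymerase epsilon is the leading-strand polymerase of eukaryotic replication forks. Its catalytic subunit is POL2A, for which Arabidopsis also carries the near-copy POL2B, and DPB2 is its second-largest subunit. ICU2 is the catalytic subunit of polymerase alpha, which with primase starts each new strand. POLD1 and POLD2 are the catalytic and the small subunit of polymerase delta, the lagging-strand polymerase. PCNA, encoded by PCNA1 and PCNA2, is the ring that holds polymerases on DNA, and LIG1 joins the Okazaki fragments. Transcripts of most of these genes peak in dividing cells at the start of S phase, when E2F transcription factors act on their promoters, so a whole-seedling level depends on how many cells divide. In such bulk samples, a change in the number of dividing cells and a change of RNA per cell cannot be told apart.

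The 2 pairs of near-identical genes are shown first, because their reads can be divided between copies by sequence alone. Over the aligned coding sequence PCNA1 and PCNA2 were 85.6% identical, with a longest identical run of 41 bases. POL2A and POL2B were 89.8% identical over 6408 aligned coding bases, with a longest identical run of 74 bases. The stretches below hold 120 coding bases of each gene from TAIR10.1 (RefSeq), 5′ to 3′, with capitals at the bases that differ within a pair. They cover coding bases 402 to 521 of both PCNA genes, and bases 4664 to 4783 of POL2A beside 4613 to 4732 of POL2B.
PCNA1: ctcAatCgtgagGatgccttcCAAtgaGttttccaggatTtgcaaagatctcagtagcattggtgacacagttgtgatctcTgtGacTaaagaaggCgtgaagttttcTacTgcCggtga
PCNA2: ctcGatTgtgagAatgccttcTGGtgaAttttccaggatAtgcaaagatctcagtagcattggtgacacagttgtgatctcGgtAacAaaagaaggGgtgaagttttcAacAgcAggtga
POL2A: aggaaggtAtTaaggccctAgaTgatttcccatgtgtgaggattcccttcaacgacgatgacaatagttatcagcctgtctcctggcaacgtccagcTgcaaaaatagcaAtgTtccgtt
POL2B: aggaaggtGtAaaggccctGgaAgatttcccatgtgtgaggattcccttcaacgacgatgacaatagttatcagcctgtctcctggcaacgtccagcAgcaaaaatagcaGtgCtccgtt
The PCNA stretch differed at 15 of its 120 bases and the POL2 stretch at 7. A read that lies wholly inside an identical run could come from either copy. The labels do not say how the counting treated such reads, so values of these 4 genes carry that uncertainty.

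The window from 250 bases before to 50 bases after each gene's annotated start was searched on both strands for the E2F core motifs TTCCCGC and TTGGCGC. These cores were chosen after the sequences had been seen. At least 1 match was found for 5 of the 9 genes, beside 2.41% of 27443 protein-coding genes. It was also found for 9 of 25 other replication fork genes, 3 of 8 genes of dividing cells and 0 of 8 repair genes, the lists used below. The matched sites are shown because they are what ICU2, DPB2, POLD1 and both PCNA genes share outside their function. Each line gives 25 bases of the gene's own strand in TAIR10.1 (RefSeq), 5′ to 3′, with the core or its reverse complement in capitals.
DPB2: cacattcgtTTCCCGCcgatttggg
ICU2: aaatggataGCGCCAAaatcgtgtc
ICU2: gtgtcgattTTCCCGCcatctccat
POLD1: ttaaaactgGCGGGAAtcggagtgg
PCNA1: agcgcattgGCGGGAAccaaatagc
PCNA2: cacacacagGCGGGAAcaaaaatac
These sites lie at chr5:7334272-7334296 on the minus strand, chr5:26776874-26776898 and chr5:26776894-26776918 on the plus strand, chr5:25599485-25599509 on the plus strand, chr1:2263045-2263069 on the plus strand and chr2:12651746-12651770 on the minus strand. The core of PCNA2 began 8 bases before the annotated start, and that of DPB2 began 5 bases before it and ran across it. The cores began 70 and 50 bases before the start in ICU2 and 20 bases before it in POLD1. In PCNA1 the core lay after the start and began at base 18 of the transcript. No match was found in the windows of POL2A, POL2B, POLD2 and LIG1, which says only that these letters are not there. Of the genes with a match, POLD1 had the smallest and PCNA1 the largest difference of the tested genes between pol2a and Col0 seedlings. Between ld pol2a and ld seedlings POLD1 and PCNA1 both rose and ICU2 fell on the relative scale. The part of these sites in the changes was not tested.

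Neighbouring genes on the opposite strand overlap 6 of the 9 genes, and no source used here says that strand was used in counting. The shared part of the exon length was 24.4% for POL2A (with AT1G08250 and AT1G08270), 23.6% for PCNA2 (with AT2G29560), 15.04% for ICU2 (with AT5G67110) and 12.8% for POLD2 (with AT2G42130). It was 5.36% for DPB2 (with AT5G22100) and 1.98% for POLD1 (with AT5G63970). PCNA1, LIG1 and POL2B had no overlapping gene. Reads of a member and of its overlapping partner cannot be told apart in the shared part.

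In units of 1e6 reads, recovered totals per library were 10.4 to 14.4 for set 1 and 13.2 to 35.0 for set 2. They were 23.1 to 37.8 for set 3 and 11.95 to 21.1 for the apices. Transcript levels gave no check of the pol2a label, because POL2A was not lower in pol2a than in Col0 libraries. FLD fell in fld, from 108.5 to 137.7 in Col0 to 3.85 to 10.5 of relative signal. LD was higher in ld than in Col0 seedlings of set 1 (291.3 to 321.2 beside 122.1 to 130.8) and of set 2 (297.4 to 329.5 beside 241.9 to 281.2). It was lower in ld seedlings of set 3 (495.9 to 550.6 beside 607.7 to 676.2) and in ld apices (4.23 to 11.2 CPM beside 14.7 to 21.4), so ld and pol2a below mean the libraries labelled so. Apex replicates 3 of Col0 and of ld had the lowest POL2A, ICU2, POLD1 and LIG1 of their groups, and ld replicate 3 stood apart from the other ld apices across the transcriptome. Leaf transcripts were abundant in the apices, with a summed RBCS1A and LHCB1.1 level of 24319 to 45383 CPM, while WUS, which marks the stem cell organizer, was at 0 to 0.0806 CPM.

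Seedling values were read in 2 ways, both as deposited on the spike-in scale and as a relative signal in which each library was rescaled by its median over genes. A fold change on the spike-in scale holds the change of total signal per spike-in, and a fold change on the relative scale is set against the median gene. Genes with a mean signal of at least 10 were tested on log2(signal + 1), which understates the change of low genes, and a gene was called at an adjusted p below 0.05. POL2B stayed below the count or signal minimum in every table, so 8 of the 9 genes were tested in each.

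In Col0, the order of the levels per kb of exon was led by PCNA2, PCNA1 and LIG1 in all 4 tables, and POL2B came last. In set 2 seedlings PCNA2 stood at 313.5 ± 18.3 (SD, n = 3) of relative signal per kb, PCNA1 at 137.3 ± 16.2 and LIG1 at 116.4 ± 3.36. The libraries of PCNA1 and LIG1 overlapped there, whereas PCNA2 lay above both. POLD2 followed at 81.2 ± 14.4, POLD1 at 51.5 ± 5.0, ICU2 at 39.2 ± 0.430, POL2A at 30.0 ± 0.308 and DPB2 at 24.1 ± 1.15, with no overlap between neighbours. The spread between replicates of set 2 may be understated, as given under processing, so these SDs and the lack of overlap carry that limit. In Col0 apices the order was the same, from 44.8 ± 4.04 CPM per kb for PCNA2 and 20.7 ± 3.99 for PCNA1 to 2.17 ± 0.578 for POL2A and 1.31 ± 0.255 for DPB2. There the libraries of neighbouring genes overlapped from POLD2 down to DPB2. In sets 1 and 3 DPB2 stood above ICU2 and POL2A per kb, and in set 1 the libraries of DPB2, ICU2 and POL2A overlapped. Levels of different sets are not compared with each other, since each table was scaled on its own.

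**Figure D1:**
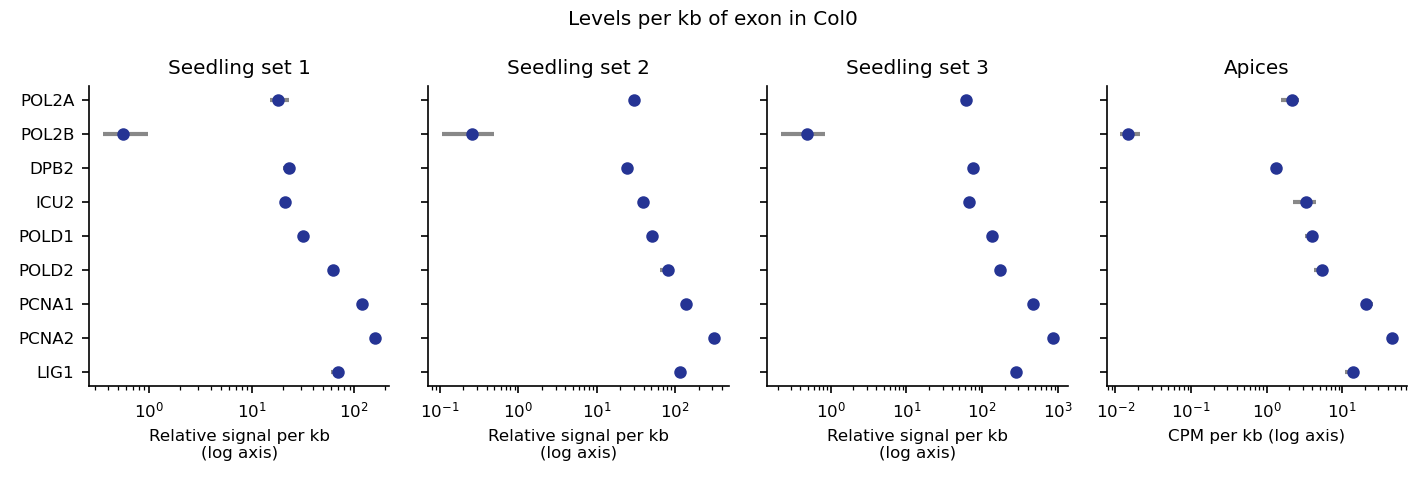
Level of each gene per kb of exon in Col0 (points, mean of 3 libraries; grey bars, lowest to highest library) on a log axis, as relative signal in the 3 seedling sets and as CPM in apices. PCNA2 is highest and POL2B lowest in each panel.

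POL2B was close to absent in every library. Its reads ranged from 0 to 9 per library, 76 in all, and 8 of the 39 libraries had none. In set 2 the reads summed over 3 libraries were 5 in Col0, 2 in ld, 4 in pol2a and 1 in ld pol2a, beside 853, 904, 1033 and 1478 for POL2A. In the apices they were 4, 5, 2 and 6 in the same order of groups, beside 789, 927, 1080 and 1143 for POL2A. The share of POL2B in the reads of both copies was 0.386% in pol2a and 0.583% in Col0 seedlings, and 0.185% and 0.504% in the apices, and such counts cannot show a difference of this size. With 1 read added to both genes, the log2 ratio of POL2B to POL2A was lower by 0.99 ± 0.20 (SE) in pol2a than in Col0 apices, the groups did not overlap and the exact two-sided permutation p was 0.1, the smallest that 3 against 3 allows. In set 2 seedlings the same difference was -0.86 ± 0.79 (exact permutation p = 0.3). With ld in both groups it was -1.01 ± 0.77 (exact permutation p = 0.3) in seedlings and -0.51 ± 0.51 (exact permutation p = 0.5) in apices. Where the minimum was removed, POL2B was not called in any comparison with pol2a, and its log2 difference between pol2a and Col0 was -0.54 ± 0.57 (limma adjusted p = 0.466) in set 2 on the relative scale. Of the other comparisons it was called lower in ld than in Col0 of set 1 on the relative scale (-1.44, adjusted p = 0.010), where it had 0 to 1 reads beside 2 to 6, and higher in ld of set 3 on the spike-in scale (1.43, adjusted p = 0.0028). No gain of POL2B transcripts was thus seen in pol2a, and a small one was not detectable at this depth.

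Comparing pol2a with Col0 seedlings of set 2 on the relative scale, 7 of the 8 tested genes rose and none fell. PCNA1 rose most, POL2A itself and DPB2 followed, and POLD1 showed no difference. Of all 19444 genes tested 30.0% were called higher and 29.8% lower in this comparison, in about equal parts. The median log2 fold change was 0.39 over the 8 genes and 0.00 over all genes tested. The same 7 genes rose on the spike-in scale, beside 34.0% of all genes called higher, and the median over all genes was 0.06. In apices 1 of the 8 genes rose, PCNA1, and none fell, beside 3.70% of 18705 genes called higher and 2.33% called lower. Each group's difference between seedlings and apices was not tested, since the tables differ in unit and extraction.

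**Figure D2:**
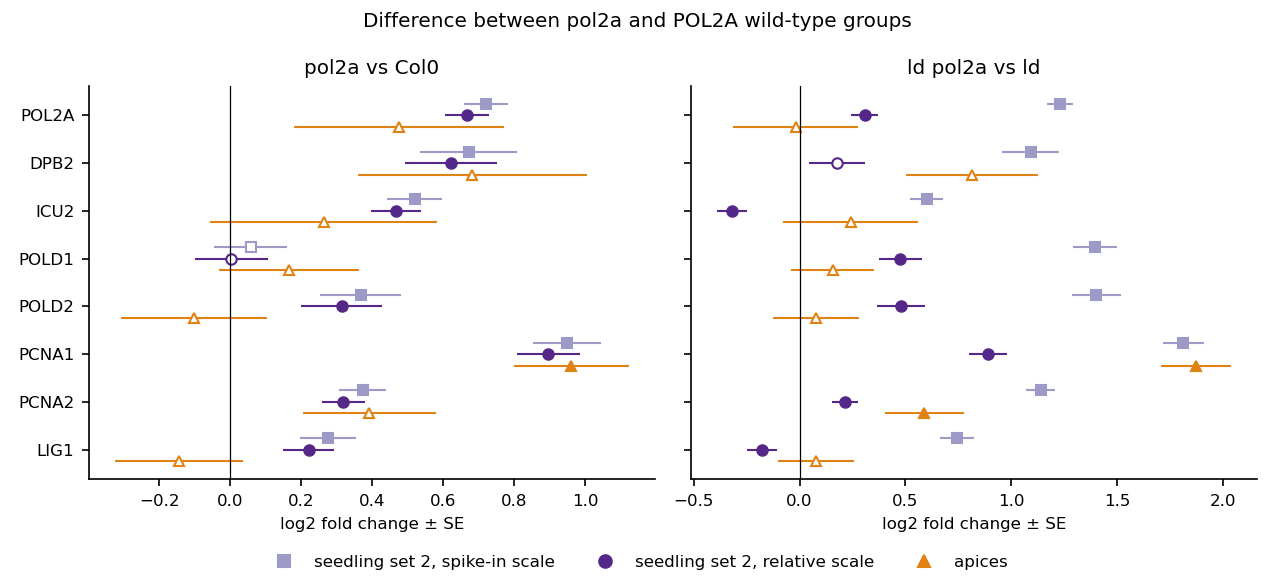
Log2 fold change ± SE of the 8 tested genes between pol2a and Col0 and between ld pol2a and ld, in set 2 seedlings on both scales and in apices. Filled markers are called at an adjusted p below 0.05 and open ones are not. PCNA1 is to the right of 0 in all 6 comparisons.

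POL2A, the gene that pol2a is named for, was higher in pol2a seedlings. Its relative signal was 264, 262 and 267 in the 3 Col0 libraries and 402, 410.3 and 450.4 in the 3 pol2a libraries of set 2. Every pol2a library lay above every Col0 library. The log2 fold change was 0.67 ± 0.06 (SE, limma adjusted p = 1.3e-08). The spread between replicates of set 2 may be understated, as given under processing, and this SE and p with it. ADT6 (AT1G08250), which overlaps POL2A on the opposite strand, rose in the same comparison by 0.61 (adjusted p = 3.8e-05), from 139.9 to 153 in Col0 to 209.7 to 238 in pol2a, and its part in the POL2A result was not tested. In ld pol2a POL2A had a relative signal of 393, 366 and 363, beside 300.2, 299 and 307 in ld. That rise was smaller, at 0.31 ± 0.06 (limma adjusted p = 0.000296), and ADT6 did not pass the test there (log2 fold change -0.07, adjusted p = 0.59). In Col0 apices POL2A stood at 19.99, 23.7 and 13.7 CPM, and in pol2a apices at 20.8, 28.4 and 30.7 CPM. Those groups overlapped, and the log2 difference of 0.48 ± 0.30 did not pass the test (edgeR quasi-likelihood adjusted p = 0.41). In ld pol2a apices it stood at 26.1, 20.2 and 17.5 CPM beside 30.3, 22.4 and 12.1 in ld, a log2 difference of -0.02 ± 0.29 (adjusted p = 0.97).

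DPB2, the partner subunit of POL2A, rose with it in pol2a seedlings. Its relative signal was 50.3, 47.3 and 45.8 in Col0 and 77.2, 71.9 and 73.2 in pol2a, with no overlap. The log2 fold change was 0.62 ± 0.13 (limma adjusted p = 0.00035), while the log2 ratio of DPB2 to POL2A within a library differed by -0.04 ± 0.08 (SE, exact permutation p = 0.8). AT5G22100, which overlaps DPB2 by 106 bases, rose by 0.55 (adjusted p = 5.9e-05). Between ld pol2a and ld, DPB2 was at 64.6, 68.8 and 69.4 beside 59.2, 64.8 and 55.3, a log2 difference of 0.18 ± 0.13 that did not pass (adjusted p = 0.25). In apices DPB2 counts were low, 31 to 42 reads per Col0 library and 38 to 70 per pol2a library, and the log2 difference of 0.68 ± 0.32 did not pass (edgeR adjusted p = 0.26). In ld pol2a apices DPB2 stood at 4.84, 4.8 and 4.63 CPM, above 4.21, 2.46 and 1.41 in ld. The groups did not overlap, yet the spread in ld left a log2 difference of 0.81 ± 0.31 with an adjusted p of 0.062. Without ld replicate 1, the highest ld library, that difference was 1.29 and passed (edgeR adjusted p = 0.00876). The log2 ratio of DPB2 to POL2A was higher by 0.91 ± 0.18 in ld pol2a than in ld apices, again without overlap (exact permutation p = 0.1, the smallest possible).

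ICU2, the polymerase alpha subunit, went in opposite directions with and without the ld mutation. In set 2 its relative signal was 229, 224 and 227 in Col0 and rose to 335, 310.5 and 296 in pol2a, a log2 fold change of 0.47 ± 0.07 (limma adjusted p = 8.9e-06). In ld it was already 279, 304 and 292, and it fell to 223, 235 and 242 in ld pol2a, by 0.32 ± 0.07 (limma adjusted p = 0.00056). Neither pair of groups overlapped. The difference between the 2 effects was -0.79 ± 0.10 (adjusted p = 1.5e-06) on the relative scale. On the spike-in scale ICU2 rose in both comparisons, by 0.52 ± 0.08 and 0.60 ± 0.08, and the difference of 0.08 ± 0.11 did not pass (adjusted p = 0.49). ALC (AT5G67110), which overlaps ICU2, rose by 0.70 between ld pol2a and ld (adjusted p = 0.0041). In apices ICU2 ranged from 12.8 to 25.8 CPM in Col0, 21.6 to 24.03 in pol2a, 9.45 to 27.6 in ld and 18.8 to 26.6 in ld pol2a, and no comparison passed.

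Of the 2 polymerase delta subunits, POLD2 passed the test between pol2a and Col0 and POLD1 did not, while the ratio of the 2 genes overlapped between these groups. Both rose between ld pol2a and ld. POLD1 was at 206, 175 and 175 of relative signal in Col0 and 182, 163 and 213 in pol2a, which overlapped fully (log2 difference 0.00 ± 0.10, limma adjusted p = 0.99). POLD2 was at 113, 152 and 161 in Col0 and 184, 168 and 173 in pol2a and passed at 0.31 ± 0.11 (adjusted p = 0.0221). The lowest POLD2 value was Col0 replicate 1. Without it the POLD2 difference was 0.16 (adjusted p = 0.188), and without pol2a replicate 1 it was 0.28 (adjusted p = 0.0729). POLD2 gave 0.21 on the spike-in scale without Col0 replicate 1 (adjusted p = 0.0898). From ld to ld pol2a both rose by 0.48 on the relative scale, with adjusted p values of 0.00048 for POLD1 and 0.0011 for POLD2. POLD1 went from 144, 139.7 and 166 to 203, 214 and 207 there, without overlap. The 2 POLD1 effects differed by 0.47 ± 0.14 (adjusted p = 0.010). In apices POLD1 ranged from 10.5 to 17.8 CPM and POLD2 from 7.32 to 12.02 CPM over all 12 libraries, and neither passed in any comparison. The log2 ratio of POLD2 to POLD1 differed by 0.31 ± 0.26 between pol2a and Col0 seedlings (exact permutation p = 0.3) and by -0.26 ± 0.13 in apices, where the groups did not overlap (exact permutation p = 0.1). The first was 0.08 without Col0 replicate 1, and the second -0.13 without pol2a replicate 2.

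**Figure D3:**
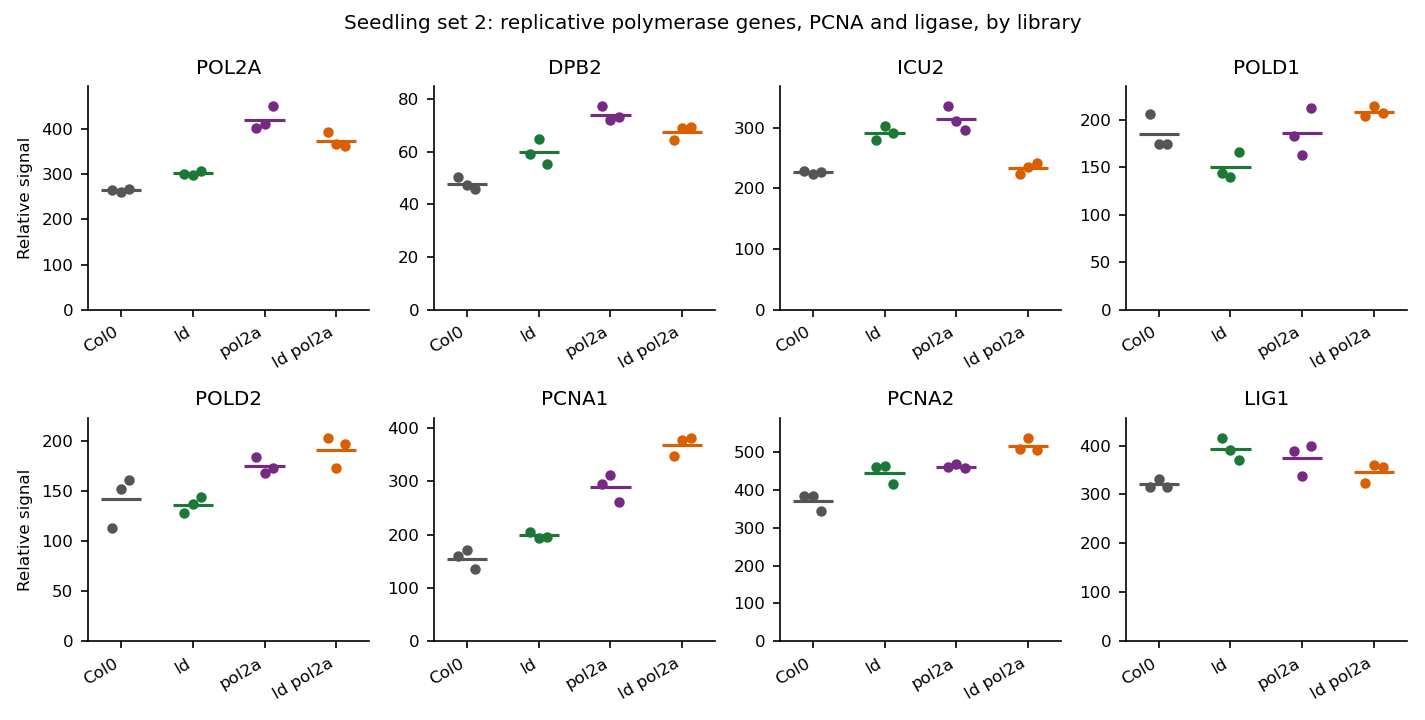
Relative signal of the 8 tested genes in each library of seedling set 2 (points) with the group mean (bars), axes from 0. PCNA1 increases from Col0 through ld and pol2a to ld pol2a, while the group means of ICU2 and LIG1 are higher in ld and in pol2a than in ld pol2a.

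PCNA1 was the gene of this family with the highest difference in pol2a in both tissues. In set 2 its relative signal was 159, 171 and 135 in Col0, 294, 312 and 260.4 in pol2a, 206, 194 and 196 in ld and 349, 377 and 382 in ld pol2a. The 4 groups did not overlap. PCNA1 rose by 0.90 ± 0.09 between pol2a and Col0 (limma adjusted p = 2.8e-08) and by 0.89 ± 0.09 between ld pol2a and ld (adjusted p = 3.9e-08). These 2 effects differed by -0.01 ± 0.13 (adjusted p = 0.97). In the apices PCNA1 stood at 28.5, 20.2 and 21.5 CPM in Col0 and at 53.1, 41.6 and 42.1 CPM in pol2a. It stood at 20.4, 15.6 and 16.4 CPM in ld and at 55.4, 70.7 and 65.9 CPM in ld pol2a. All pol2a and ld pol2a libraries were above all Col0 and ld libraries. The log2 fold change was 0.96 ± 0.16 between pol2a and Col0 (edgeR adjusted p = 0.0048) and 1.87 ± 0.17 between ld pol2a and ld (adjusted p = 1.9e-05). Leaving out 1 library at a time gave 0.84 to 1.12 for the first, with adjusted p from 0.0047 to 0.0289, and 1.77 to 1.99 for the second. The 2 apex effects differed by 0.91 ± 0.23 (adjusted p = 0.033). This difference lost its call in 6 of 12 fits that left out 1 library (0.74 without Col0 replicate 1, 0.81 and 0.87 without ld pol2a replicates 2 and 3, 0.81 without ld replicate 2, and 0.83 without each of pol2a replicates 2 and 3, with adjusted p from 0.0834 to 0.103).

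PCNA2, the more abundant PCNA gene, moved less. Its relative signal in set 2 was 383, 384 and 346 in Col0 and 461, 469 and 457 in pol2a, a rise of 0.32 ± 0.06 (limma adjusted p = 0.00014). Between ld (461, 463 and 415) and ld pol2a (509, 538 and 507) it rose by 0.22 ± 0.06 (adjusted p = 0.0047). ENOC (AT2G29560), which overlaps PCNA2, rose by 0.26 in the first comparison (adjusted p = 0.00048) and fell by 0.16 in the second (adjusted p = 0.020). In apices PCNA2 was at 56.0, 47.5 and 55.6 CPM in Col0 and 86.9, 60.5 and 61.3 CPM in pol2a, without overlap, but with a log2 difference of 0.39 ± 0.19 that did not pass (edgeR adjusted p = 0.26). Between ld (43.5, 41.2 and 66.6 CPM) and ld pol2a (69.2, 79.2 and 79.1 CPM) it rose by 0.59 ± 0.19 (adjusted p = 0.0298). That call rested on single libraries: it was lost without ld replicate 1 (0.48, adjusted p = 0.11), ld replicate 2 (0.44, adjusted p = 0.142), ld pol2a replicate 2 (0.53, adjusted p = 0.104) or ld pol2a replicate 3 (0.54, adjusted p = 0.101).

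**Figure D4:**
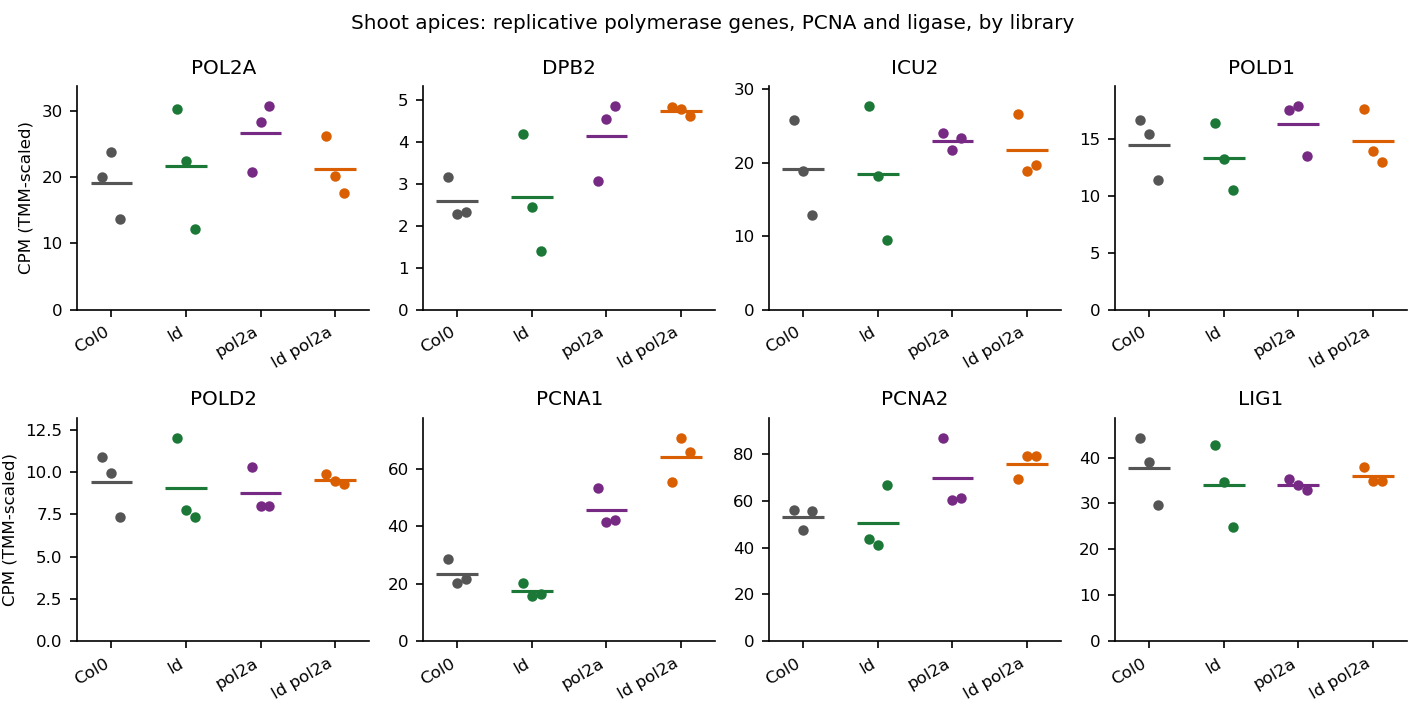
TMM-scaled CPM of the 8 tested genes in each apex library (points) with the group mean (bars), axes from 0. PCNA1 in pol2a and ld pol2a lies above all Col0 and ld libraries, and the Col0 and ld libraries of POL2A, ICU2 and LIG1 are widely spread.

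The balance between the PCNA genes was read within each library, where the scale factor of the library has no part. The recovered reads of sets 1 and 2 are not raw reads, as given under processing. The spread of their ratios may be understated, and what else was done to these values is not known. In set 2 there were 2.40 ± 0.160 (SD, n = 3) PCNA2 reads per PCNA1 read in Col0, 2.25 ± 0.138 in ld, 1.61 ± 0.133 in pol2a and 1.41 ± 0.0688 in ld pol2a. The apices gave 2.30 ± 0.315 in Col0, 2.95 ± 1.01 in ld, 1.52 ± 0.104 in pol2a and 1.19 ± 0.0640 in ld pol2a. The log2 ratio was lower by 0.58 ± 0.09 (SE) in pol2a than in Col0 seedlings, by 0.68 ± 0.07 in ld pol2a than in ld seedlings, by 0.59 ± 0.13 in pol2a than in Col0 apices and by 1.26 ± 0.28 in ld pol2a than in ld apices. In each of the 4 comparisons the groups did not overlap and the exact two-sided permutation p was 0.1, the smallest that 3 against 3 allows. The highest ratio, 4.07, was that of ld apex replicate 3. In set 1, fld had 1.09 ± 0.0610 PCNA2 reads per PCNA1 read, beside 1.38 ± 0.113 in Col0 and 1.40 ± 0.162 in ld. In set 3 the ratio was 1.93 ± 0.0308 in Col0 and 1.68 ± 0.10 in ld. The ratio was thus also lower in fld seedlings and in ld seedlings of set 3, without overlap with their Col0.

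**Figure D5:**
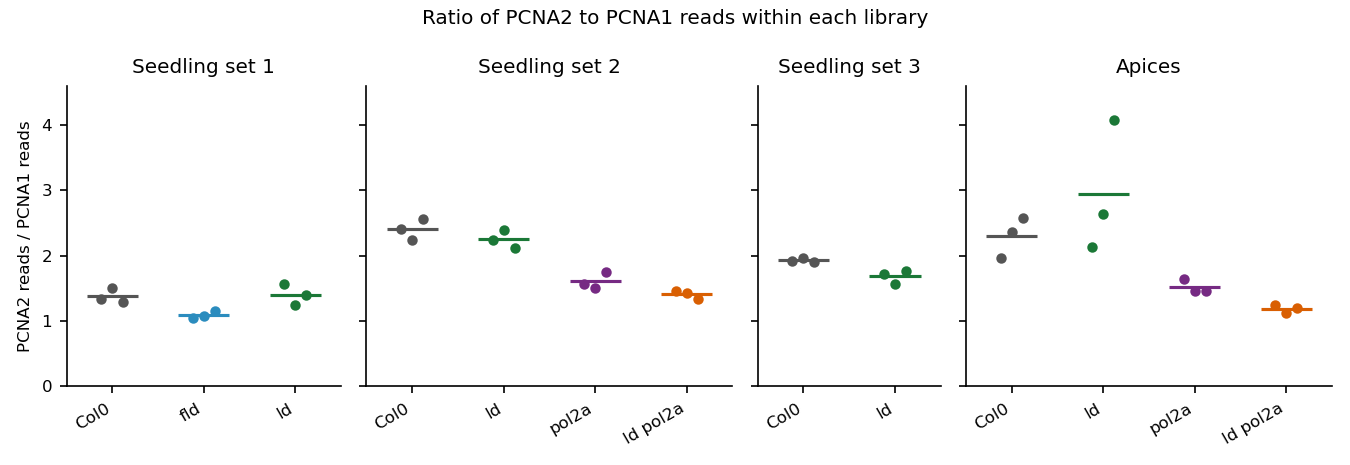
PCNA2 reads per PCNA1 read in each library (points) with the group mean (bars), axis from 0. The pol2a and ld pol2a libraries lie between 1.12 and 1.76, below the Col0 and ld libraries of the same table.

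LIG1, the ligase, moved little in pol2a. In set 2 its relative signal was 316, 331 and 315 in Col0 and 389, 337 and 398 in pol2a, a rise of 0.22 ± 0.07 (limma adjusted p = 0.0117). Without pol2a replicate 3 it was 0.18 and not called (adjusted p = 0.0623). Between ld (416, 391 and 371) and ld pol2a (324, 359.7 and 356) LIG1 fell by 0.18 ± 0.07 (adjusted p = 0.037), and this call was lost without ld replicate 1 (-0.14, adjusted p = 0.141), ld replicate 2 (-0.18, adjusted p = 0.0714) or ld pol2a replicate 1 (-0.13, adjusted p = 0.165). Apex LIG1 ranged from 24.8 to 44.3 CPM over the 12 libraries, and its log2 differences of -0.15 ± 0.18 in pol2a and 0.08 ± 0.18 in ld pol2a did not pass.

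In total, between ld pol2a and ld, 5 of the 8 genes rose and 2 fell in set 2 on the relative scale, beside 30.3% of all genes called higher and 29.9% called lower. With the spike-in scaling all 8 rose, beside 94.0% of all genes, whose median log2 fold change was 0.93. LIG1 (0.74) and ICU2 (0.60) lay below that median and the other members above it, up to 1.81 for PCNA1. In apices 2 of the 8 rose and none fell, beside 18.3% of all genes called higher and 15.8% lower. Against Col0, ld pol2a seedlings had 5 of 8 genes called on the relative scale, all higher (PCNA1 1.25, POL2A 0.50, DPB2 0.49, PCNA2 0.48 and POLD2 0.44), beside 57.5% of all genes called in either direction. All 8 were higher on the spike-in scale, beside 97.9% of all genes. In ld pol2a apices PCNA1 was the 1 gene of 8 called against Col0 (1.45 ± 0.16, edgeR adjusted p = 0.00013), beside 25.7% of all genes called.

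The test of whether the pol2a effect differed with ld called 5 of the 8 genes in set 2 on the relative scale, beside 51.5% of all genes. ICU2 (-0.79), DPB2 (-0.45), LIG1 (-0.40) and POL2A (-0.36) had a smaller or reversed effect in the presence of ld, and POLD1 (0.47) a larger one. The DPB2 call was narrow (adjusted p = 0.049) and was lost in 10 of the 12 fits that left out 1 library and in 4 of the other fits. On the spike-in scale 7 of the 8 genes had a larger effect in the presence of ld, beside 86.5% of all genes called higher and a median of 0.86 over all genes, so the sign for POL2A, DPB2 and LIG1 depended on the scale. DPB2 was narrow there too (adjusted p = 0.0462) and lost its call in 9 of 12 fits without 1 library. In apices PCNA1 was the 1 gene called of 8, beside 7.54% of all genes.

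The ld mutation without pol2a was compared in 4 tables, and fld in 1. In set 2 on the relative scale 6 of the 8 genes were called between ld and Col0, beside 34.5% of all genes: ICU2 (0.36), PCNA1 (0.36), LIG1 (0.29), PCNA2 (0.27) and POL2A (0.19) rose and POLD1 (-0.30) fell. The POL2A call was lost without Col0 replicate 2 (adjusted p = 0.0564) or ld replicate 3 (adjusted p = 0.0594), and that of POLD1 without Col0 replicate 1, ld replicate 1 or ld replicate 2 (adjusted p = 0.0767 to 0.14). In set 1, 3 of 8 were called between ld and Col0, beside 53.0% of all genes: POLD1 (0.45) and LIG1 (0.36) rose and ICU2 (-0.49) fell. POL2A there gave 0.22 (adjusted p = 0.14) and passed at 0.40 without Col0 replicate 3. In set 3, LIG1 (0.23), ICU2 (0.25) and PCNA1 (0.15) rose, 3 of 8 beside 38.5% of all genes, and PCNA1 was not called without Col0 replicate 1, ld replicate 1 or ld replicate 2 (adjusted p = 0.0591 to 0.0917). LIG1 was the only gene of the 8 called higher in ld in all 3 seedling sets on the relative scale. In apices 0 of the 8 were called between ld and Col0 by edgeR, DESeq2 or without ld replicate 3, none had an unadjusted p below 0.05 except PCNA1, which had a log2 difference of -0.42 ± 0.17, and 0.968% of all genes were called. With the replicate number as a block, since same-numbered apex libraries of these groups deviated together, 524 genes in place of 181 were called and still 0 of the 8. All 8 genes were higher in ld on the spike-in scale in each seedling set, beside 97.1% of all genes in set 1, 79.8% in set 2 and 94.4% in set 3. The POLD1 call of set 2 (0.25) was lost there without Col0 replicate 2, Col0 replicate 3 or ld replicate 3 (adjusted p = 0.0895 to 0.128).

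Between fld and Col0 in set 1, 6 of the 8 genes were called on the relative scale, beside 58.7% of all genes. PCNA1 rose by 0.70 ± 0.08, LIG1 by 0.49 ± 0.08, PCNA2 by 0.37 ± 0.07, POLD1 by 0.33 ± 0.09 and POL2A by 0.29 ± 0.12, and ICU2 fell by 0.26 ± 0.10. PCNA1 was at 226, 214 and 223 in fld, above 136, 127 and 143 in Col0. The POL2A call was lost without Col0 replicate 1 (0.22), Col0 replicate 2 (0.17) or fld replicate 2 (0.19), and the ICU2 call was lost without any 1 of Col0 replicates 2 and 3 and fld replicates 1, 2 and 3 (adjusted p = 0.0527 to 0.0892). On the spike-in scale all 8 were higher, beside 98.8% of all genes.

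Other genes of the replication fork were read from a list of 25, which holds further polymerase subunits, the clamp loader, replication protein A, GINS and related factors. Between pol2a and Col0 in set 2 on the relative scale 12 rose and 5 fell, with a median of 0.16 beside 0.00 over all genes, of which 30.0% were called higher and 29.8% lower. RPA70B, a large subunit of the single-strand binding protein RPA, rose by 1.11, CDC45, part of the replicative helicase, by 1.06, POLD4, the smallest polymerase delta subunit, by 0.63 and RFC1, the large clamp loader subunit, by 0.49. Between ld pol2a and ld 6 rose and 1 fell, a smaller share than the 30.3% and 29.9% of all genes, with POLD4 at 0.94, RPA2 at 0.92, CDC45 at 0.77 and RPA70C at 0.62. In apices 3 of the 25 rose between pol2a and Col0 and none fell, beside 3.70% and 2.33% of all genes, namely CDC45 (0.99), PSF1 (0.99), a GINS subunit, and POLD4 (0.75). RFC2 was next, with a log2 difference of 0.47 that did not pass (edgeR adjusted p = 0.085). Between ld pol2a and ld apices 15 rose and 1 fell, beside 18.3% and 15.8% of all genes, and those with the smallest p were CDC45 (1.61), POLA2 (0.86), the polymerase alpha B subunit, POLD4 (0.91) and RFC2 (0.84). PSF1 went the other way in seedlings, where it fell by 0.72 between pol2a and Col0. CDC45 was at 10.5 to 14.1 CPM in Col0, 7.29 to 9.68 in ld, 21.4 to 26.5 in pol2a and 23.6 to 29.6 in ld pol2a apices.

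Of 8 repair and translesion genes, 1 rose and 3 fell between pol2a and Col0 seedlings on the relative scale, beside 30.0% of all genes called higher and 29.8% lower, so the count lower was near the share of all genes. REV1 (-0.58) and REV3 (-0.37), of the translesion machinery, and LIG4 (-0.24), the end-joining ligase, fell, and the translesion polymerase gene POLK (0.22) rose. Between ld pol2a and ld seedlings REV1 (0.47) and POLK (0.21) rose and LIG4 (-0.31) fell, beside 30.3% and 29.9% of all genes, and TEB gave 0.22 (adjusted p = 0.11). None of the 8 passed between pol2a and Col0 apices, where POLK gave 0.36, POLL -0.85, POLH -0.31 and LIG4 -0.10 with edgeR adjusted p from 0.178 to 0.835, and 1 had an unadjusted p below 0.05. DESeq2 also called 0 of them. In ld pol2a apices 5 of 8 were lower than in ld, beside 15.8% of all genes, with REV1 at -2.28, LIG6 at -3.33, REV3 at -0.90 and LIG4 at -0.62. Against Col0, 0 of the 8 were called in ld pol2a apices (-1.35 to 0.26), beside 25.7% of all genes called. In ld apices their median log2 difference from Col0 was 0.33, the highest was 1.98 and 0 were called, beside 0.968% of all genes. That count depended on ld replicate 3. Without it 3 of the 8 were called higher in ld and 0 lower, beside 1226 higher and 1298 lower of 18920 genes. The apex interaction of ld and pol2a called 0 of the 8, and without ld replicate 3 it called 5 lower, beside 1648 of 18920 genes.

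Some genes of dividing cells were also higher in pol2a. Of 8 such genes 5 rose and none fell in set 2 on the relative scale both between pol2a and Col0 and between ld pol2a and ld, 4 rose between pol2a and Col0 apices and 7 between ld pol2a and ld apices. The share of all genes called higher in these comparisons was 30.0%, 30.3%, 3.70% and 18.3%. Between pol2a and Col0 the genes of this list that were not called went down to -0.17 in seedlings and -0.08 in apices. Between pol2a and Col0, HTR2, a gene of the replication-coupled histone H3, rose by 0.96 in seedlings and 1.14 in apices, CDKB1;1, a cell cycle kinase, by 0.87 and 1.07, and CYCB1;1, a mitotic cyclin, by 1.07 and 0.51. MCM2, a helicase subunit, rose by 0.37 in seedlings, and CDKB2;1 by 0.21 in seedlings and 0.61 in apices. Between ld pol2a and ld, HTR2 rose by 0.84 and 1.52, CDKB1;1 by 1.53 and 1.25 and CDKB2;1 by 0.74 and 0.55, while CYCB1;1 rose by 1.44 in seedlings and MCM2 by 0.75 in apices. The summed level of the 8 genes was 455.1 to 511.5 CPM in Col0, 366.3 to 432.3 in ld, 625.1 to 813.3 in pol2a and 729.7 to 794.1 in ld pol2a apices. In set 2 seedlings the sum was 2085 to 2151 of relative signal in Col0, 2397 to 2460 in ld, 2953 to 3093 in pol2a and 3631 to 3786 in ld pol2a. In both tables every pol2a and ld pol2a library had a higher sum than every Col0 and ld library, as it had for PCNA1, and the part of the number of dividing cells in its result was not tested.

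The summed level of shoot apex markers was higher in pol2a and ld pol2a as well. The summed level of 6 such markers was 10.6 to 13.0 CPM in Col0, 13.3 to 15.2 in ld, 23.7 to 26.0 in pol2a and 22.3 to 24.02 in ld pol2a apices. In apices the sum was thus higher in ld than in Col0, while the PCNA1 mean was lower in ld. The meristem gene STM stood at 3.86 to 5.51 CPM in Col0 and 9.78 to 14.0 in pol2a (log2 fold change 1.33, edgeR adjusted p = 0.0015), and KNAT1 at 3.85 to 6.28 and 9.30 to 10.4 (0.85, adjusted p = 0.0496). STM and KNAT1 held most of the Col0 sum, and changes of the other markers are not given here. In set 2 seedlings the same sum was 180.0 to 200.5 of relative signal in Col0, 191.8 to 233.7 in ld, 275.5 to 308.8 in pol2a and 286.7 to 314.5 in ld pol2a. Its mean rose there from Col0 to ld and from pol2a to ld pol2a, with libraries that overlapped, and the PCNA1 mean rose in both steps too. The summed leaf markers RBCS1A and LHCB1.1 also differed there, at 162459 to 167923 in Col0, 256822 to 265230 in ld, 252288 to 261209 in pol2a and 276829 to 282453 in ld pol2a. Col0 was below the other groups for these leaf markers, and their part in the rises of the replication genes was not tested. Root markers were near 0 in the apices, with a summed level of 0.819 to 2.07 CPM over 4 genes. The share of meristem tissue in a sample and its part in the PCNA1 result were not tested.

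The genes whose pattern was most like that of POL2A differed between the tables. Over the 12 libraries of set 2, the highest Pearson r of log2 relative signal with POL2A among genes with a symbol was that of CSLG3 (0.988), PLAT1 (0.987), scpl29 (0.986), SARD1 (0.984) and ENODL19 (0.983). Over the 12 apex libraries it was that of ESP (0.947), HEB1 (0.930), DGK2 (0.927), IMK2 (0.926) and RCK (0.924). Among the family itself, DPB2 was closest to POL2A in set 2 (0.905), before PCNA1 (0.828), and ICU2 was closest in the apices (0.827), where PCNA1 gave 0.223 and PCNA2 -0.280. The libraries of a table share their group differences, so these r values describe the tables and carry no p.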

How the data were processed

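The submitters' processing notes name the TAIR10 build and the tools HISAT2, featureCounts, DESeq2, deepTools, Trimmomatic 0.38 and SAMtools 1.9. The apex table holds raw read counts per gene, as deposited by the authors. The seedling tables hold signal as deposited by the authors: counts per gene over 1 factor per library, read here as the spike-in factor that the labels name. In each seedling library 100% of values were whole multiples of the smallest value, within 0.1 reads, and gave the recovered reads. In sets 1 and 2 these are not raw reads: the direction of smallest variance among libraries carried 0.109% and 0.127% of the sampling variance (17.6% in set 3), so the spread between replicates there may be understated. Signal was tested with limma 3.58.1 (R 4.3.3) with a trend, on log2(signal + 1) where a gene's mean was at least 10, and again after median-of-ratios scaling. Counts were tested with edgeR 4.0.16 quasi-likelihood fits after TMM scaling and filterByExpr. All groups of a table shared 1 fit, and p-values were adjusted by Benjamini-Hochberg over all genes tested. Ratios of 2 genes used recovered reads and exact two-sided permutation tests, 16 in all, with no p adjusted since 3 against 3 cannot go below 0.1.

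Alternatives were other pseudocounts, no minimum, TMM or RLE scaling, edgeR on recovered reads, DESeq2 1.42.0, a replicate block, leaving out each library and, chosen after seeing the data, counting replicate pairs that differed by less than the sampling noise as 1 sample. There were 3 such pairs in set 1, of which fld 1 with 3 and ld 2 with 3 were merged, and 1 in set 3, Col0 1 with 2. These pairs were kept apart otherwise, because the missing variance makes that noise test too lenient. Same-numbered apex libraries deviated together between Col0 and ld (correlations of deviations from the group means 0.228 to 0.588 over 3 pairs) and between Col0 and pol2a (0.265 to 0.475), a pairing read from the data and not from the labels. Whether replicates came from separate plantings is described as biological by the submitters, with no further detail. The genes and lists were chosen with earlier results of these data known. All 9 genes were named in each comparison, and of each list up to 4 with the smallest p between pol2a and Col0 and between ld pol2a and ld. Positions, overlaps and sequences are from TAIR10.1 (RefSeq), which matched 28009 of 28775 seedling and 32820 of 33562 apex identifiers. Permutation and counting limits cover these libraries only. The tests were checked on simulated data.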

Additional observations from a re-analysis of the deposited data

Results flagged for a closer look

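In set 2 the effect of pol2a differed with the ld mutation, by the interaction test of limma. On the relative scale the difference was -0.79 for ICU2 (adjusted p = 1.502e-06), -0.45 for DPB2 (0.0493), -0.40 for LIG1 (0.0025), -0.36 for POL2A (0.0022) and 0.47 for POLD1 (0.010). On the spike-in scale it was 1.34 for POLD1, 1.03 for POLD2, 0.86 for PCNA1, 0.77 for PCNA2, 0.51 for POL2A, 0.47 for LIG1 and 0.42 for DPB2, beside a median of 0.86 over all genes. The DPB2 call was lost on both scales in most fits that left out 1 library. In apices the difference was 0.91 for PCNA1 (edgeR adjusted p = 0.033), beside 7.54% of all genes called. It kept its call in 6 of 12 fits that left out 1 library.

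The difference between ld and Col0 had opposite signs in different seedling sets, with groups that did not overlap in either set. ICU2 gave -0.49 in set 1 beside 0.36 in set 2 and 0.25 in set 3, and POLD1 gave 0.45 in set 1 beside -0.30 in set 2, all on the log2 relative scale. These differences between sets were not tested.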

How the results depend on the processing

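Within a scale, no called change of a single gene reversed its sign under any alternative run. Between the relative and the spike-in scale, some called changes did reverse. From ld to ld pol2a in set 2, ICU2 gave -0.32 and 0.60 and LIG1 -0.18 and 0.74. POLD1 gave -0.30 and 0.25 between ld and Col0 of set 2. ICU2 of set 1 gave -0.49 and 0.73 in ld, and -0.26 and 1.38 in fld. The interaction of set 2 reversed for POL2A, DPB2 and LIG1. Of 848 gene changes refitted with other pseudocounts, minimums, scalings, tools, the replicate block or merged pairs, 836 kept their direction and their side of the threshold, 10 lost their call and 2 gained one. Of 1152 refitted without 1 library, 55 lost their call and 2 gained one. The count of genes called moved by over 1.5 times in few cases. For ld pol2a against Col0 in apices it was 1 in the report and 2 with DESeq2, which added DPB2 (0.86, adjusted p = 0.0485). Leaving out 1 library gave 0 to 1 genes for the apex interaction and 1 to 2 for ld pol2a against ld in apices. The log2 ratio of DPB2 to POL2A between pol2a and Col0 ranged over 0 without 1 library, from -0.0985 to 0.02203 in seedlings and from -0.08815 to 0.33 in apices, and that of POLD2 to POLD1 between ld pol2a and ld from -0.05809 to 0.096 and from -0.14 to 0.05998. The ratio of POL2B to POL2A could not be computed without an added read, since POL2B had libraries at 0. Over all genes, the apex comparison of ld with Col0 called 181 genes, 809 with DESeq2, 114 with no minimum and 2524 without ld replicate 3 (10 to 324 without each of the other libraries), and the other apex counts fell to as few as 494 of 1410 for the interaction and rose to 3619 without ld replicate 3, fell to 2727 of 4807 for ld pol2a against Col0 without ld pol2a replicate 3 (2809 without replicate 2), fell to 3862 of 6363 for ld pol2a against ld without ld pol2a replicate 2 (3955 and 4135 without ld pol2a replicate 3 and ld replicate 2), and fell to between 515 and 640 of 1129 for pol2a against Col0 without Col0 replicates 1 or 2 or pol2a replicates 1 or 2. The cause was not tested.

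In the seedling sets and in the apex comparisons with ld pol2a the correlations of same-numbered libraries were not all above 0.1 (-0.16 to 0.33, -0.60 to 0.0051 and -0.10 to 0.10 in sets 1, 2 and 3), so the numbers were not taken as pairs there. With the replicate block the genes called for ld pol2a against Col0 in apices were 2 in place of 1, with PCNA2 added, and all genes called for ld against Col0 in apices were 524 in place of 181. No gene of the 8 changed its call with the block between ld or pol2a and Col0 apices. The replicate block gave 1, 2, 0 and 1 called for the apex comparisons interaction, ld pol2a against ld, ld and pol2a, as in the report. Depth limits POL2B and, in apices, DPB2 most.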
